A study of Arabidopsis thaliana with 4 samples.

Results

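The comparison set the second inflorescence sample of each genotype against the first. The members were chosen by sample number alone, as the 2 arrays titled with number 2 against the 2 titled with number 1, and they make up all 4 of the 4 arrays. Total RNA was taken from mixed-stage inflorescences of Arabidopsis thaliana Col-0, the wild type, and of plants that carry the xrn4-5 allele in the Col-0 ecotype. Each genotype gave 1 sample of each number. XRN4 is the main cytoplasmic enzyme of Arabidopsis that digests RNA 5' to 3' once the cap is gone. Growth was at 21 °C in long days, 16 h light and 8 h dark, for both genotypes, and no other treatment, plant age or hour of harvest is given in the sources used here. The labels do not say what the number marks, nor whether the samples came from separate plants. The p-values below therefore cover only how far these 4 samples lie apart, a spread that can be technical, and 4 arrays limit the precision of every value.

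The functions followed here belong to a network that plants use to track their surroundings. The circadian clock, a loop of factors that peak at set times of day, gates the response of genes to light and cold. Cold-regulated and dehydrin proteins protect membranes and enzymes when cells lose water. In light, protochlorophyllide is reduced to chlorophyllide on the way to chlorophyll, and enzymes that cut and rejoin xyloglucan loosen the wall of growing cells.

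Signal was given per probe set, a group of short oligonucleotides on the ATH1 array, and the 4 arrays were alike in level, with median signals of 239 to 248. The labelled tissue was compared with its markers. Of 9 floral marker genes with a named probe set, 2 were bright enough to be tested, AGL24 at 166 to 203 and SPT at 167 to 272. The other 7 had means too low to be tested, with single readings of up to 178 for PTL, while the anther marker ATA27 read 5235 to 6481. Summed over 6 tapetum markers, the nurse tissue of pollen, signal was 8185 and 8935 in the first and second xrn4-5 samples and 10047 and 9922 in those of Col-0. Over 12 late pollen markers the sums were 1798 and 1981 in xrn4-5 and 2484 and 1979 in Col-0. Both marker sums were higher in the second xrn4-5 sample and lower in the second Col-0 sample. Only 4 of the 12 late pollen markers were bright enough to be tested, so dim probe sets take part in that sum. For these 4 the log2 differences of second minus first sample lay between -0.06 and 0.07 in xrn4-5. In Col-0 they lay between -0.38 and 0.20. Over 2 root markers the sums were 214 and 181 in xrn4-5 and 180 and 196 in Col-0. A lower signal can reflect fewer cells of a type or less RNA per cell, and these cannot be told apart here.

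The cold-regulated genes COR15B and LTI30, the chlorophyll synthesis gene PORB and the clock-controlled gene CCL stood higher in the second samples of both genotypes. The wall-loosening enzymes XTH19 and XTH32, the light-signalling factor HYH and the cytochrome P450 gene CYP71B31 stood lower. Differences are on log2(signal + 32), which understates the change of dim genes. Of 13647 tested probe sets, limma with genotype as a block called 177 higher in the second samples, or 1.3%, and 151 lower, or 1.11%, at an adjusted p under 0.05. Together these 328 probe sets are 2.4% of those tested. Each moved the same way in both genotypes, which the call itself favours. The fit sets the mean of the pair differences against how far they lie apart. Of the called probe sets, 71 were at least 2-fold higher and 40 at least 2-fold lower. The first and second samples did not overlap in 170 of the 177 and 143 of the 151. These had been called on the same values, which favours such a gap, and the share over all tested probe sets was not counted. An unadjusted p under 0.05 was reached by 1899 probe sets. The lowest mean of a tested probe set was 160, and 25 of the higher calls had a mean below it in the first samples and 11 of the lower calls in the second. These passed the filter on dim signal only through the samples where they were high, so any named below are given as values with no p. The count depends on the settings: 1 probe set was called when dim probe sets were kept, 8 when genotype was left out of the fit, and 0 without either second sample, where 954 and 972 still had an unadjusted p under 0.05.

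Per gene, 7226 named genes were tested with 1 probe set each, and 129 of them, or 1.79%, were called. This count included 68 genes higher and 61 lower in the second samples. Differences were also counted by size alone, with no test. At least 2-fold in both genotypes the same way, 40 probe sets were higher, or 0.293% of those tested, and 16 were lower, or 0.117%. The 40 are 55.6% of the 72 probe sets 2-fold higher in the xrn4-5 pair and 22.3% of the 179 in the Col-0 pair. The 16 are 32.7% of the 49 that were 2-fold lower in the xrn4-5 pair and 21.6% of the 74 in the Col-0 pair. Differences spread less in the xrn4-5 pair, with an SD across probe sets of 0.297 on the log2 scale, than in the Col-0 pair, with 0.348. Across the tested probe sets the differences of both pairs correlated at a Pearson r of 0.424. This is a description over probe sets of the same 4 arrays, which are not independent of each other.

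**Figure D1:**
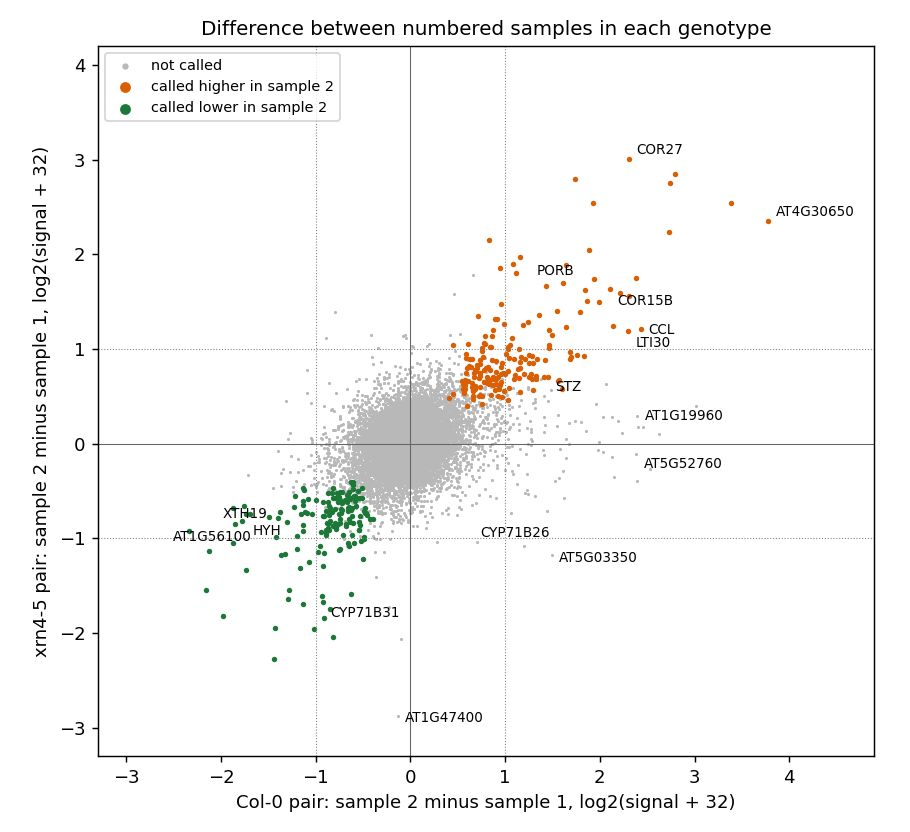
Each point is 1 of 13647 tested probe sets, with the log2 difference of sample 2 minus sample 1 in Col-0 on the horizontal axis and in xrn4-5 on the vertical axis, and dotted lines at 2-fold. Probe sets called higher (177) or lower (151) lie at the upper right and lower left, and some grey points are far from 0 along 1 axis only.

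The array's own controls moved little with sample number at the transcript ends and more in spiked RNA. For actin, the log2 signal of the 5' minus the 3' probe set was -0.48 and -0.52 in the first and second xrn4-5 samples and -0.67 in both Col-0 samples. The same measure lay between 0.05 and 0.12 for GAPDH and between -0.23 and -0.15 for ubiquitin. Of 27 spiked bacterial and phage controls with a mean signal of at least 200, 26 were lower in the second xrn4-5 sample, with a median log2 difference of -0.23. In Col-0, 20 of the 27 were lower, with a median of -0.06. The 25S ribosomal RNA control read 273.8 and 250.6 in xrn4-5 and 763 and 296 in Col-0, and the 5S control 249.6 and 176.9 in xrn4-5 and 302.6 and 314.7 in Col-0. The part of these controls in the differences was not tested.

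Of the 10 tested cold and dehydration genes, COR15B and LTI30 were called higher in the second samples and 0 were called lower. Of all named genes, 1.79% were called in either direction. COR27 also lay past the threshold, but it passed the filter only through its second samples. The group joins a pathway list of 7 tested genes with genes that bear cold-regulated or dehydrin names. The median log2 difference was 0.055 over the list of 7, which does not hold COR27, beside -0.001 over all named genes. Over the 10 it was 0.24, a value that includes COR27 and so leans on a gene let in by its high samples. COR27, a cold-regulated gene that also acts in the clock, read 25.1 and 425 in the first and second xrn4-5 samples and 39.1 and 321 in Col-0. Both first samples were dim and both second samples stood far above them. The second samples were 6.31-fold higher in the fit, with n = 2 per number. Since both first samples were below or near the added 32, this fold is understated.

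COR15B encodes a small chloroplast protein that protects membranes during freezing. Its signal was 794 and 2540 in the first and second xrn4-5 samples and 438 and 1997 in Col-0. The groups did not overlap, and the second samples were 3.66-fold higher (95% interval 2.93 to 4.58, limma adjusted p = 0.00171). LTI30, a dehydrin, read 251 and 615 in xrn4-5 and 85.5 and 547 in Col-0. The difference of 3.35-fold (2.27 to 4.95, limma adjusted p = 0.0144) was wider in Col-0, at 4.93-fold, than in xrn4-5, at 2.28-fold.

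The near relative COR15A did not pass the test. Its signal was 5108 and 6278 in the first and second xrn4-5 samples and 2422 and 4778 in Col-0, with a limma adjusted p of 0.0874. Its first samples overlapped its second ones, since the first xrn4-5 sample lay above the second Col-0 sample. The dehydrin COR47 was close to level, with log2 differences of -0.08 in xrn4-5 and -0.12 in Col-0. LEA4-5, a late embryogenesis abundant protein, had differences of -0.71 and -0.34, and the list member AT1G54410 of 0.37 and 0.48. Neither passed the test, with limma adjusted p of 0.266 and 0.058. The cold group thus did not move as 1 block: 5 of its 10 members, COR27 among them, were higher in both genotypes. Of the rest, 3 were lower in both and 2 went opposite ways. Of all 7226 named genes, 2092 were higher in both, 2143 were lower in both and 2986 went opposite ways.

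The clock group rests on 7 tested genes, without most of the core morning and evening factors, which have no named probe set here. COR27, which is on this list too, was the 1 gene past the threshold, with the limit given above. Of all named genes, 1.79% were called. The median log2 difference of the clock group was 0.18 with COR27, its highest member, included. A median without COR27 was not taken, so this value does not show a shift of the group. GI, an evening gene that links the clock to flowering, read 431 and 537 in the first and second xrn4-5 samples and 214 and 360 in Col-0. Its first and second samples overlapped between genotypes, and its fitted difference of 1.4-fold (1.1 to 1.78) had a limma adjusted p of 0.184. FIO1, named for its role in flowering and clock period, had log2 differences of -0.63 in xrn4-5 and -0.37 in Col-0, with a limma adjusted p of 0.215. XCT, a regulator of clock period, had 0.32 in both pairs, with a limma adjusted p of 0.457. TIC, another clock regulator, lay at 0.05 and -0.15. The list members AT1G69570 and AT5G52660 had -0.25 and 0.24 in xrn4-5 and -0.32 and 0.12 in Col-0.

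CCL, a gene known for a short-lived, clock-controlled transcript, was on none of these lists and was among the leading genes. It read 2011 and 4715 in the first and second xrn4-5 samples and 988 and 5500 in Col-0. Second samples were 3.55-fold higher (2.42 to 5.2, limma adjusted p = 0.0121), by 2.32-fold in xrn4-5 and 5.42-fold in Col-0.

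The light signalling list held 2 tested genes, and light genes outside the list were not gathered. HYH, the close homologue of the light-signalling factor HY5, read 249 and 116 in the first and second xrn4-5 samples and 550 and 233 in Col-0. Second samples were lower in both genotypes, with no overlap between numbers, by 2.04-fold (95% interval 1.59 to 2.62, limma adjusted p = 0.019). HAT2, a homeobox factor of the shade and auxin response, had log2 differences of -0.12 and -0.18, with a limma adjusted p of 0.661. With 2 genes, no statement on light signalling as a whole can be made.

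In chlorophyll synthesis and breakdown, 1 of 11 tested genes was called, beside 1.79% of all named genes. PORB, which encodes a light-requiring protochlorophyllide oxidoreductase, read 660 and 2285 in the first and second xrn4-5 samples and 630 and 2509 in Col-0. The genotypes were nearly alike at each number, and second samples were 3.59-fold higher (2.98 to 4.32, limma adjusted p = 0.00105). The steps before PORB were tested only in part, without every gene of each step, and cannot be judged as a whole. The tested genes HEMA2, GSA1, HEMB1, HEME1, HEME2, CHLI2 and CHLM had fitted log2 differences between -0.10 and 0.12. None of these passed the test. In the genotypes 7 of the 11 genes of the group went opposite ways, beside 2986 of all 7226 named genes. The group's median log2 difference was -0.11 in the xrn4-5 pair and 0.16 in the Col-0 pair. LIL3:2, a light-harvesting-like protein of late chlorophyll synthesis, was the member with the lowest p after PORB, at -0.08 and -0.20 with a limma adjusted p of 0.643.

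Nuclear photosynthesis genes were bright, with 1 of 11 called, or 9.09%, beside 1.79% of all named genes. LHCB4.2, a minor antenna protein of photosystem II, read 7347 and 4230 in the first and second xrn4-5 samples and 7064 and 5347 in Col-0, so both second samples were the lower ones. The fall was 1.51-fold (1.26 to 1.82, limma adjusted p = 0.0414). Its paralogues did not pass the test: LHCB4.1 had log2 differences of -0.36 in xrn4-5 and 0.15 in Col-0, and LHCB4.3 of 0.24 and 0.21. Genes of the Calvin cycle had negative differences in both pairs, with -0.30 and -0.17 for PRK, -0.11 and -0.21 for RCA and -0.12 and -0.16 for SBPASE. None of these 3 passed the test, and their limma adjusted p lay between 0.308 and 0.594. CaS, a thylakoid calcium sensor that is on none of the lists, was called lower, by 1.51-fold (1.29 to 1.78, limma adjusted p = 0.026).

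Genes of the plastid genome itself, a group added after the data had been seen, gave 3 higher calls among 67 tested genes and 0 lower calls, or 4.48% called, beside 1.79% of all named genes. psbK, a small subunit of photosystem II, read 2191 and 4420 in the first and second xrn4-5 samples and 2339 and 4819 in Col-0. It was 2.02-fold higher in the second samples (1.73 to 2.37, limma adjusted p = 0.00366). psbI, the gene next to it, read 2842 and 4034 in xrn4-5 and 3006 and 4999 in Col-0, and was 1.53-fold higher (1.29 to 1.81, limma adjusted p = 0.0271). petG, a subunit of the cytochrome b6f complex, was 1.89-fold higher (1.51 to 2.37, limma adjusted p = 0.019), from 213 to 482 in xrn4-5 and from 425 to 750 in Col-0. First and second samples did not overlap for any of these 3 genes.

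Most other plastid genes lay on the other side of 0 without passing the test. Of the 67, 39 were lower in both second samples and 9 were higher in both, and the median log2 difference was -0.18, beside -0.001 over all named genes. Of all named genes, 2143 of 7226 were lower and 2092 higher in both. An unadjusted p under 0.05 was reached by 26 of the 67, and by 898 of the 7226. psbB, a core antenna protein of photosystem II, had differences of -0.44 in xrn4-5 and -0.73 in Col-0, with a limma adjusted p of 0.0595. psbT, its neighbour, had -0.41 and -0.65, and ndhG, a subunit of the NADH dehydrogenase-like complex, had 0.44 and 0.91. Plastid genes share transcripts, so neighbouring genes are not separate observations.

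**Figure D2:**
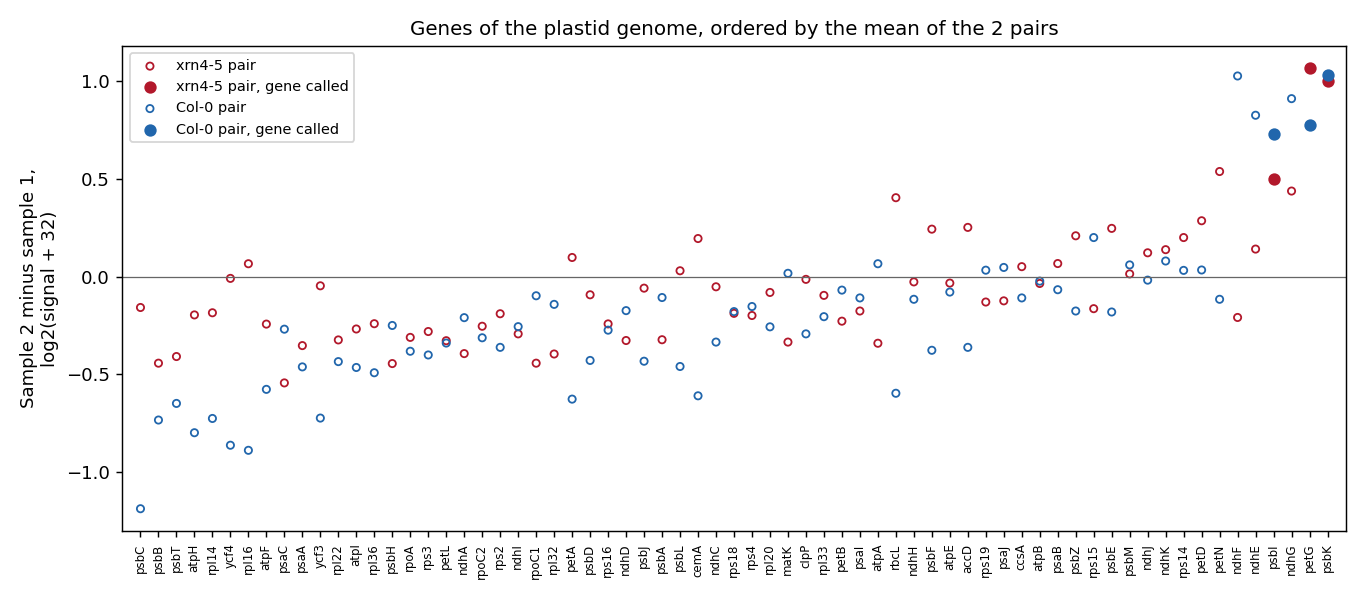
Log2 difference of sample 2 minus sample 1 for the 67 tested plastid-genome genes, ordered by the mean of both pairs, in xrn4-5 (red) and Col-0 (blue), with called genes filled. The called genes psbK, petG and psbI stand near the right end, with the uncalled ndhG between petG and psbI, and 39 genes lie below 0 in both pairs.

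Cell wall genes gave 2 lower calls among 27 tested, or 7.41%, beside 1.79% of all named genes called, both from the xyloglucan endotransglucosylase family. XTH19 read 569 and 307 in the first and second xrn4-5 samples and 753 and 287 in Col-0. The second samples were lower in both genotypes, without overlap, by 2.09-fold (1.63 to 2.68, limma adjusted p = 0.0162). XTH32 read 2322 and 1442 in xrn4-5 and 2306 and 1449 in Col-0, so the genotypes gave almost the same values at each number. It was 1.59-fold lower (1.34 to 1.88, limma adjusted p = 0.021). Of the other 2 tested members of the family, EXGT-A3 had log2 differences of -0.41 and -0.58, with a limma adjusted p of 0.0891, and XTH16 of -0.23 and 0.05.

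Expansins, which loosen the wall without cutting its polymers, were not called in 10 tested genes by limma, with log2 differences from -0.21 to 0.14 in the fit, and none of them had an unadjusted p under 0.05. The median over all 27 wall genes was -0.09, and 12 of the 27 were lower and 0 higher in both genotypes. Of all 7226 named genes, 2143 were lower and 2092 higher in both. CSLC5, a synthase of the xyloglucan backbone, had -0.25 and -0.29, and the pectin methylesterase gene ATPMEPCRB had -0.45 and -0.24. Neither passed the test, with limma adjusted p of 0.361 and 0.366.

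Among 26 tested stress genes GSTU18 was called lower, beside 1.79% of all named genes called in either direction. STZ lay past the threshold on the higher side but passed the filter only through its second samples. STZ, a zinc finger repressor that responds within minutes to cold, salt and wounding, read 118 and 213 in the first and second xrn4-5 samples and 176 and 537 in Col-0. Its second samples were 1.63-fold higher in xrn4-5 and 2.73-fold in Col-0. GSTU18, a glutathione transferase, read 1039 and 627 in xrn4-5 and 1079 and 687 in Col-0, and was 1.58-fold lower (1.31 to 1.91, limma adjusted p = 0.0306).

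The stress genes nearest to passing the test act in oxygen detoxification. CCS, the copper chaperone of superoxide dismutase, had log2 differences of 0.52 and 0.66 and a limma adjusted p of 0.0662. SAPX, the stromal ascorbate peroxidase, had 0.63 and 0.44 (limma adjusted p = 0.072), and the glutathione reductase gene GR1 had -0.42 and -0.46 (limma adjusted p = 0.0757). WRKY53, a factor of senescence and defence, had 0.10 in xrn4-5 and 0.94 in Col-0, with a limma adjusted p of 0.361. The group's median, with STZ included, was 0.07. Of the 26 members 7, STZ among them, were higher and 8 lower in both genotypes. Of all 7226 named genes, 2092 were higher and 2143 lower in both.

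**Figure D3:**
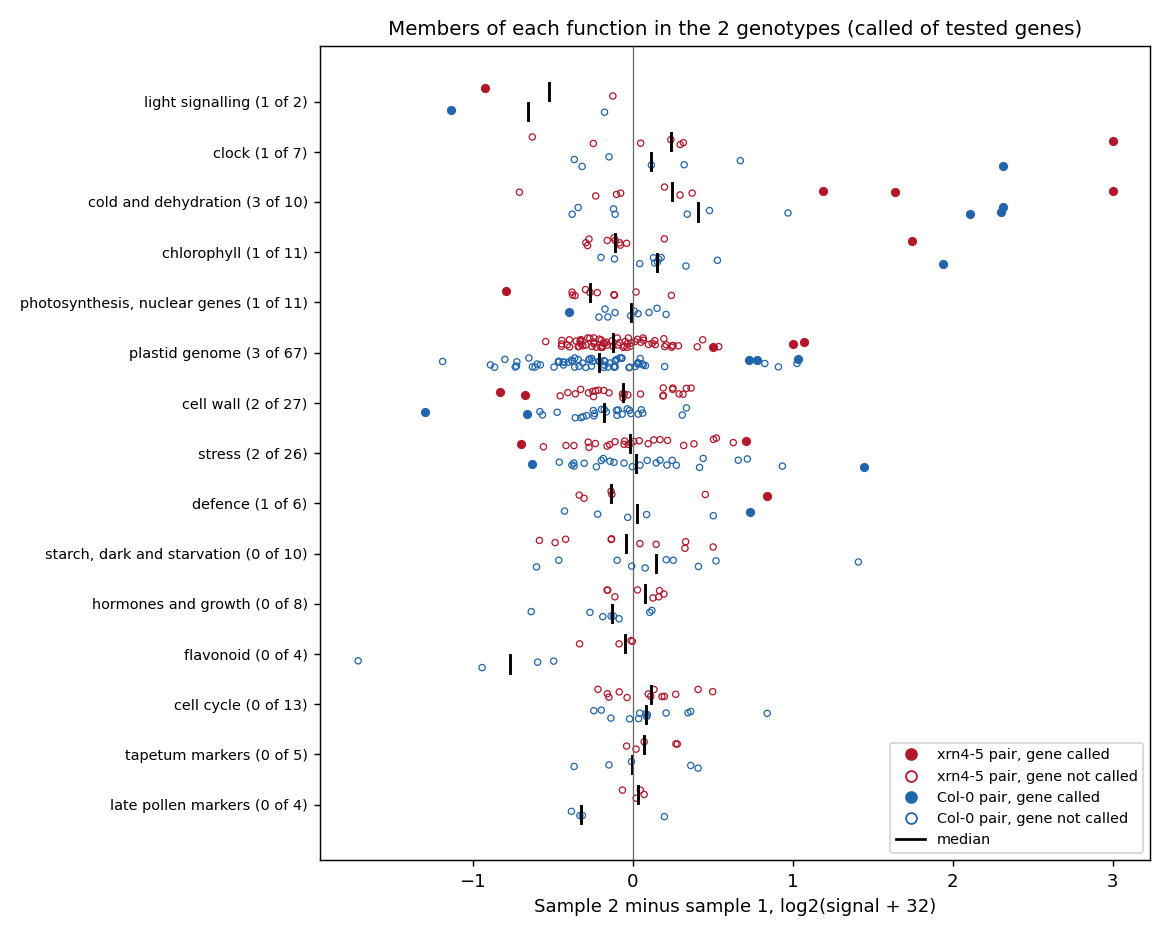
Log2 difference of sample 2 minus sample 1 for the tested genes of each function, in the xrn4-5 pair (red) and the Col-0 pair (blue), with called genes filled and the median as a black bar. Numbers in brackets are called of tested genes, such as 2 of 27 for cell wall. The numbers and the medians include COR27 and STZ, which passed the filter only through their second samples. The median of the flavonoid genes is -0.05 in xrn4-5 and -0.77 in Col-0.

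Among genes on none of those lists, the leading ones that were higher included several known only by their locus number in the names used here. The lists work by name, so such genes can still belong to the functions above. AT4G30650 had the largest fitted difference of any named gene, with 765 and 4034 in the first and second xrn4-5 samples and 168 and 2719 in Col-0. It was 8.37-fold higher in the second samples (5.37 to 13.0, limma adjusted p = 0.00261), and its neighbour in the reference annotation, AT4G30660, was 3.22-fold higher (2.6 to 3.98, limma adjusted p = 0.00171). These and the psbK and psbI pair were the 2 adjacent gene pairs with both genes called, of 2177 adjacent pairs with both genes tested. Next in size were AT1G56300 at 4.19-fold and AT5G62360 at 3.74-fold, followed by AT4G32340 at 3.35-fold, AT4G16146 at 3.33-fold and AT3G15630 at 3.14-fold. Of these, AT4G32340 passed the filter only through its second samples. AT2G23910, AT2G25730 and AT3G10020 lay between 2.6-fold and 2.81-fold. The 15 leading genes had been picked from the calls on these same values. For each of them the lower of the second samples was above the higher of the first.

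Among probe sets with no named gene, 265478_at and 267364_at had the largest rises. 265478_at read 254 and 1635 in the first and second xrn4-5 samples and 102 and 1365 in Col-0, a difference of 7.81-fold with a limma adjusted p of 0.00105. 267364_at read 48.3 and 545 in xrn4-5 and 55.4 and 572 in Col-0, 7.05-fold higher in the fit, and passed the filter only through its second samples.

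The leading genes that were lower had smaller folds. AT1G56100 read 560 and 237 in the first and second xrn4-5 samples and 774 and 153 in Col-0, and was 3.1-fold lower (2.17 to 4.41, limma adjusted p = 0.0135). AT5G48490 followed at 2.76-fold lower (2.24 to 3.4, limma adjusted p = 0.00243), with AT4G15750 at 2.76-fold and AT3G14395 at 2.7-fold. AT1G18810, AT5G38130, AT5G47350, AT3G28270, AT2G41250, AT1G76240 and AT1G55960 lay between 2.07-fold and 2.46-fold lower, of which AT1G18810 passed the filter only through its first samples. AT2G26690, a member of the NPF family of nitrate and peptide transporters by its synonym NPF6.2, read 1611 and 921 in xrn4-5 and 1921 and 712 in Col-0, 2.13-fold lower (1.66 to 2.73, limma adjusted p = 0.0153).

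CYP71B31, a cytochrome P450 of a family of mono-oxygenases in plant secondary metabolism, read 3560 and 1094 in the first and second xrn4-5 samples and 2394 and 1247 in Col-0. The second samples were 2.46-fold lower (1.88 to 3.22, limma adjusted p = 0.0121), with the wider difference in xrn4-5. CYP71B27 went from 322 to 160 in xrn4-5 and from 238 to 116 in Col-0, and passed the filter only through its first samples. Of 8 tested genes of this family, 5, CYP71B27 among them, were lower in both pairs, beside 2143 of all 7226 named genes. CYP71B26 went opposite ways in the genotypes. Of unnamed probe sets, 267545_at and 263320_at had the largest falls, at 3.74-fold and 3.63-fold.

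**Figure D4:**
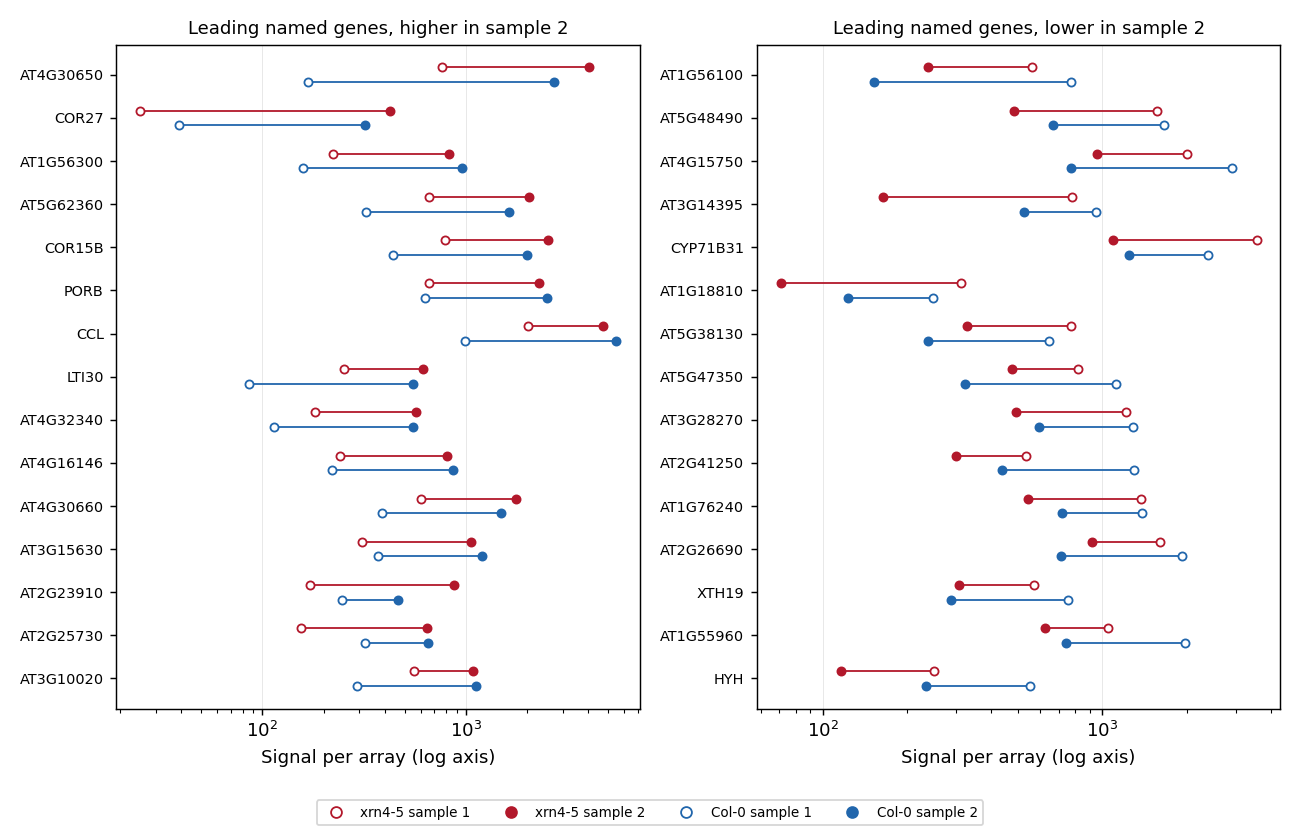
Signal per array on a log axis for the 15 leading named genes in each direction, with open circles for sample 1 and filled circles for sample 2 in xrn4-5 (red) and Col-0 (blue). Filled circles lie to the right of all open circles of the same gene in the left panel and to the left of them in the right panel.

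Some of the lists gave no call at an adjusted p under 0.05 in limma, beside 1.79% of all named genes called. Of 10 starch, dark and starvation genes none was called and 4 had an unadjusted p under 0.05. DPE1, a starch-breakdown enzyme of the plastid, had log2 differences of 0.50 in xrn4-5 and 1.41 in Col-0 and a limma adjusted p of 0.0635. Of 8 hormone genes none was called or had an unadjusted p under 0.05 in limma. Of 13 cell cycle and histone genes limma called none, with 2 at an unadjusted p under 0.05, and TUB5, a tubulin, had 0.41 and 0.84 with a limma adjusted p of 0.056. Among 6 defence genes 1 was called, beside the same 1.79%. This was LCR69, a plant defensin, at 1.72-fold higher (1.49 to 1.99, limma adjusted p = 0.00828). THI2.1, a thionin, had -0.30 and -0.43 without a call, at a limma adjusted p of 0.0951.

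Differences in 1 genotype's pair were given as values, because with 4 arrays a difference between the pairs leaves no residual degrees of freedom and was not tested. A probe set was counted when it was at least 2-fold apart in 1 pair and by no more than 0.32 on the log2 scale in the other. In the xrn4-5 pair 7 probe sets were higher, or 0.0513% of those tested, and 7 were lower, also 0.0513%. In the Col-0 pair 59 were higher, or 0.432%, and 18 were lower, or 0.132%. These include 4, 5, 27 and 10 named genes in that order. Every such value is a difference between single arrays and has no replicate. Some of these probe sets passed the filter on dim signal only through their high array, and how many did was not counted.

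In the xrn4-5 pair, the genes higher in the second sample were IQD18, ALN, BGLU15 and AT3G55870. ALN, an allantoinase of purine breakdown, read 261 and 577 in the first and second xrn4-5 samples and 255 and 297 in Col-0. BGLU15, a beta-glucosidase, read 183 and 408 in xrn4-5 and 268 and 271 in Col-0, and IQD18, a calmodulin-binding protein, 90.3 and 238 against 177 and 168. For all 3 the second xrn4-5 sample was the highest of the 4 arrays.

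The lower genes of the xrn4-5 pair held the widest single difference of this kind. AT1G47400, on the list of iron genes, read 2335 and 290 in the first and second xrn4-5 samples, 7.35-fold apart, and 7418 and 6770 in Col-0. AT5G05250 read 419 and 104 in xrn4-5, 3.31-fold apart, and 1853 and 1582 in Col-0. Both genes were lower in both xrn4-5 samples than in either Col-0 sample. AT3G56360 read 2966 and 1321 in xrn4-5 and 5670 and 4670 in Col-0, with the same order. AT1G49500 read 293 and 127 in xrn4-5 and 459 and 563 in Col-0. AT1G05450 read 424 and 195 in xrn4-5 and 432 and 340 in Col-0, so its first xrn4-5 sample lay above the second Col-0 sample. Of the other 2 iron genes tested, PYE, a regulator of the iron-deficiency response, read 320 and 224 in xrn4-5 and 746 and 471 in Col-0, with a limma adjusted p of 0.0999, and ILR3 had -0.07 and 0.01.

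In the Col-0 pair, the genes higher in the second sample included a defence enzyme and an enzyme of glucosinolate synthesis. CHI, a chitinase by its synonym, read 129 and 628 in the first and second Col-0 samples, 4.11-fold apart, and 121 and 111 in xrn4-5. BCAT4, an aminotransferase that starts the elongation of methionine for glucosinolates, read 96.3 and 397 in Col-0, 3.34-fold apart, and 243 and 292 in xrn4-5. For CHI the second Col-0 sample stood apart from the other arrays, which all read below 160, the lowest mean of a tested probe set. CHI thus passed the filter on dim signal only through that sample. For BCAT4 the first Col-0 sample was the lowest and the xrn4-5 samples lay between.

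The widest Col-0 differences were in genes known only by locus number. AT1G19960 read 125 and 798 in the first and second Col-0 samples, 5.29-fold apart, and 506 and 576 in xrn4-5. AT5G52760 read 75.7 and 532 in Col-0, 5.23-fold apart, and AT3G60420 read 122 and 672, 4.58-fold apart. In xrn4-5 these last 2 genes stayed at 93.2 and 84.3 and at 102 and 125, near the first Col-0 sample. For both, only the second Col-0 sample read above 160, the lowest mean of a tested probe set. They passed the filter on dim signal only through that sample. AT5G55450 was 4.1-fold apart, with 460 and 1985 in Col-0 and 636 and 781 in xrn4-5.

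Genes lower in the second sample of Col-0 alone differed by up to 2.42-fold. psbC, a core antenna protein of photosystem II encoded in the plastid, read 2425 and 1047 in the first and second Col-0 samples and 1947 and 1742 in xrn4-5. AT2G26210 and AT4G33420 were 2.42-fold and 2.4-fold apart in Col-0, and AT4G21630, AT1G14200 and AT3G49270 between 2.06-fold and 2.09-fold. AFR, attenuated far-red response by its synonym, is not on the light signalling list. It read 989 and 472 in the first and second Col-0 samples, 2.02-fold apart, and 690 and 563 in xrn4-5.

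Flavonoid genes had a larger median difference in the Col-0 pair than in the xrn4-5 pair, a contrast that was not tested. In xrn4-5 BAN had a log2 difference of -0.33. All 4 tested genes were lower in both pairs, beside 2143 of all 7226 named genes. Their median on the log2 scale was -0.77 in the Col-0 pair and -0.05 in the xrn4-5 pair. Limma called none of the 4, with 2 at an unadjusted p under 0.05. BAN, which makes the units of seed-coat tannins, read 670 and 182 in the first and second Col-0 samples and 409 and 319 in xrn4-5. DFR, an enzyme of an earlier step, read 388 and 187 in Col-0 and 269 and 267 in xrn4-5. The flavonol glycosyltransferases UGT78D1 and UGT78D2 had differences of -0.59 and -0.49 in Col-0 and -0.09 and -0.002 in xrn4-5. The first Col-0 sample was the highest of the 4 arrays for all 4 genes. BAN is also on the list of 6 seed markers, and the other 5 summed to 369 and 329 in the first and second Col-0 samples and to 327 and 342 in xrn4-5.

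**Figure D5:**
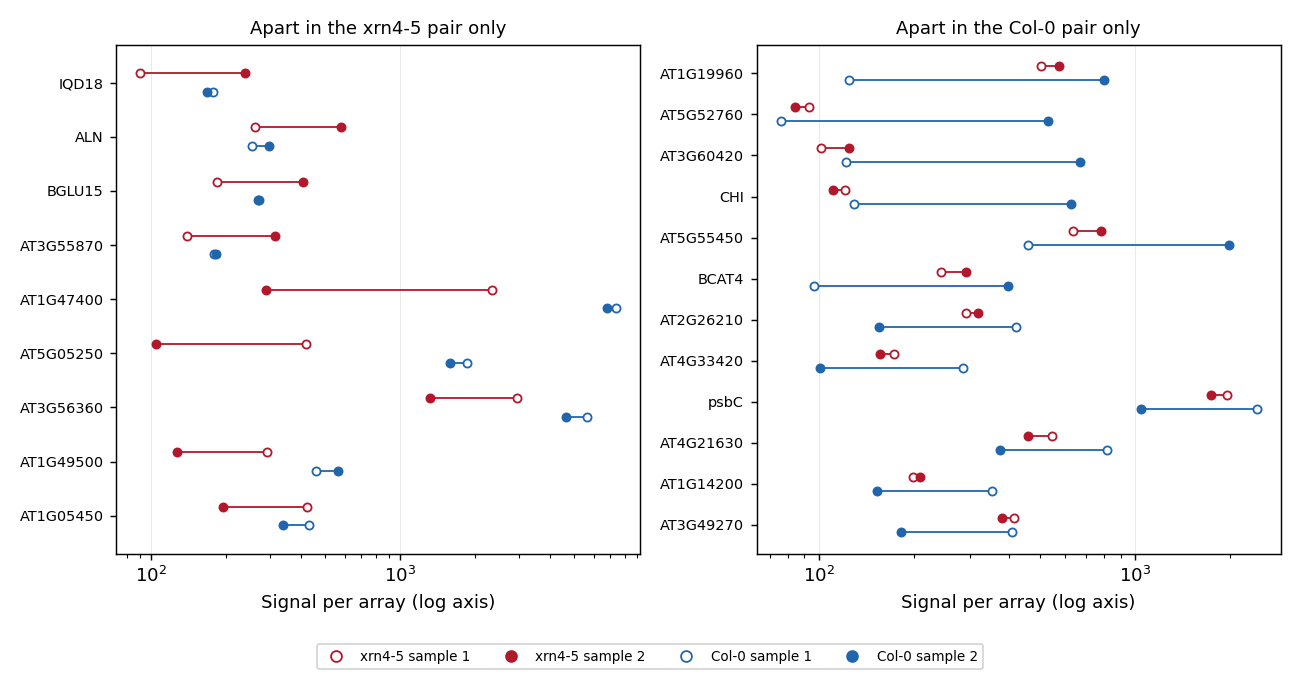
Signal per array on a log axis for up to 6 named genes per direction that were at least 2-fold apart in the xrn4-5 pair (left) or the Col-0 pair (right) and at most 0.32 apart on the log2 scale in the other pair, with open circles for sample 1 and filled circles for sample 2. AT1G47400 spans 2335 to 290 in xrn4-5 while its Col-0 samples lie at 7418 and 6770.

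The authors' deposited table of log2 ratios of xrn4-5 over Col-0, given for each pair of same-numbered samples, was set beside these genes. For AT1G47400 the authors' deposited table gives -1.6 in the first pair and -4.6 in the second, and for AT1G19960 it gives 1.7 and -0.4. It gives 1.3 and -0.4 for BCAT4 and -0.2 and -2.0 for CHI. The change of the authors' deposited ratio from the first pair to the second had the sign of the difference between pairs in 7 of 7, 7 of 7, 57 of 59 and 18 of 18 probe sets, in the order given above. The ratios come from the same 4 arrays, so they are another reading of the same samples.

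Sample number and genotype were then set side by side in the same fit. With the numbers kept as a replicate block, limma called 132 probe sets between genotypes, 71 higher and 61 lower in xrn4-5, and 1 without the block. The 328 calls by number outnumbered the calls by genotype in this fit, and 20 probe sets were called by both. Of the 328, the difference was larger in the Col-0 pair for 195 and larger in the xrn4-5 pair for 133. The last probe set inside the threshold was that of AT5G62130, with a log2 difference of -0.62 and a limma adjusted p of 0.05, and the first outside it had -0.63 and 0.051.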

How the data were processed

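The authors deposited linear intensities, 1 for each probe set on each array. Their 2% trimmed mean was 500.04 on all 4 arrays, so they had been scaled together. The submitters' processing notes name GCOS without a version. Labelling started from 15 µg of RNA, per the labels' protocols. The authors' deposited table also gives a log2 ratio and a change p-value per pair, per the file headers, and that p-value was not used.

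Of 22810 probe sets, 64 controls and then the dimmest 40% by mean over all 4 arrays were left out. The log2(value + 32) of 13647 was fitted with genotype and sample number in limma 3.58.1 (R 4.3.3; lmFit, eBayes with trend, two-sided, 1 residual degree of freedom, prior 6.94), with Benjamini-Hochberg adjustment over all at 0.05. The script was tested on simulated data. Figures used matplotlib 3.10.9 in Python 3.11.15. Other value columns numbered 0.

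Gene names come from the platform's annotation, brought up to TAIR10.1 by gene identifier; the annotation is sparse, so functions rest on few genes. The brightest probe set stood for a gene. Named are up to 15 called genes per direction by size, up to 6 per genotype and direction apart in 1 pair, the 6 lowest p of each list at most, and called members of the functions. CaS, AFR and the genes of the last section were chosen after their values were seen. Members and lists were chosen with earlier results of these data known. After seeing names, 6 list entries were left out and the plastid-genome list was added. Planned promoter motifs were not run. Samples of 1 number share only that number in the labels. Alternatives changed the pseudocount, filter, normalization, prior, block, fold and arrays used.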

Additional observations from a re-analysis of the deposited data

Results flagged for a closer look

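Both results below were noted because the samples of the genotypes moved opposite ways, and in neither case was the difference between genotypes tested, since it rests on 1 array per genotype and number. AT5G03350 read 1142 and 490 in the first and second xrn4-5 samples and 539 and 1576 in Col-0. The xrn4-5 pair difference minus the Col-0 pair difference was -2.66 on the log2 scale. CYP71B26, a cytochrome P450, read 1423 and 655 in xrn4-5 and 336 and 812 in Col-0, and the same measure was -2.28. These 2 were the probe sets at least 2-fold apart in both pairs in opposite directions. In the authors' deposited table the log2 ratio of xrn4-5 over Col-0 was 1.1 in the first pair and -1.6 in the second for AT5G03350, and 2.0 and -0.3 for CYP71B26.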

How the results depend on the processing

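The calls by number rest on the filter and on the block. In place of 177 higher and 151 lower calls, limma gave 1 and 0 when dim probe sets were kept, with 2288 at an unadjusted p under 0.05, 7 and 1 without the genotype block, and 70 and 34 without a trend in the prior; the cause was not tested. Leaving out 1 array at a time, which also drops the block, gave 0 to 55 higher and 0 to 17 lower calls. It was 0 and 0 without either second sample (972 and 954 at an unadjusted p under 0.05), 16 and 4 without the first Col-0 sample and 55 and 17 without the first xrn4-5 sample. Pseudocounts of 16 and 64, quantile normalization, median centring and the dimmest 20% left out kept both counts within 1.5 times. All 8 calls without the block were among the 328. Of the 129 named calls, 129 were lost with dim probe sets kept and 124 without the block, and none changed direction.

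Counts by size moved with the size: at 1.5-fold in both pairs 163 were higher and 118 lower, and 29 were 2-fold lower with dim probe sets kept. Probe sets apart in 1 pair, 7 higher and 7 lower in xrn4-5 and 59 and 18 in Col-0, became 94, 72, 136 and 111 with dim probe sets kept, 0, 3, 22 and 0 at 3-fold, and 13, 13, 96 and 35 when the other pair could reach 1.5-fold. With a pseudocount of 64 the xrn4-5 counts were 1 and 4. The correlation of the pair differences was 0.215 with dim probe sets kept. The paired fit, with number as a replicate block, called 132 probe sets between genotypes and the fit without it 1. Promoter motifs could not be run, as no promoter sequences were used here. The number of arrays limits the precision.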

Other observations

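Several further genes with a known role were called by number and are on none of the lists above; they were chosen after their values were seen. Higher in the second samples were PDC2, a pyruvate decarboxylase of fermentation, at 2.41-fold (limma adjusted p = 0.00366), and CHL, the chloroplast lipocalin, at 2.55-fold (limma adjusted p = 0.0136). PWD, the phosphoglucan water dikinase that primes starch for breakdown, was 1.95-fold higher (limma adjusted p = 0.0135), and MAP1C, a methionine aminopeptidase, 2.07-fold (limma adjusted p = 0.01). THIC, which makes the pyrimidine part of thiamin, was 1.55-fold higher (limma adjusted p = 0.0272).

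Lower in the second samples was SAG29, a sugar transporter of the SWEET family that is active in senescence, by 2.04-fold (limma adjusted p = 0.00917). UPB1, a helix-loop-helix factor that controls peroxidase genes in roots, was 1.78-fold lower (limma adjusted p = 0.0164), and MYC4, a factor of the jasmonate response, 1.67-fold (limma adjusted p = 0.0344). IAGLU, which joins glucose to auxin, was 1.74-fold lower (limma adjusted p = 0.0198). WSD1, a wax ester synthase of the stem surface, was 1.61-fold lower (limma adjusted p = 0.021), and AT3G21670, the transporter with the synonym NPF6.4, 1.79-fold (limma adjusted p = 0.0104).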
